A study of Sus scrofa with 6 samples.

Results

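Enzymes that write and erase methyl and acetyl marks on histones and methyl marks on DNA were examined in whole pig embryos of 2 VRTN genotypes. Members were all transcript rows whose deposited best protein match is described as a histone-lysine N-methyltransferase, a lysine-specific demethylase, a histone acetyltransferase, a histone deacetylase, a methylcytosine dioxygenase or a DNA (cytosine-5)-methyltransferase. This description was met by 108 of 20523 rows, which belong to 70 genes. The rows of 4 deacetylase complex subunits entered through the same wording and were kept apart as their own class. The rule used no expression value. The groups were 3 wild-type embryos (WT, genotype qq) and 3 embryos homozygous for both VRTN quantitative trait nucleotides (QQ). All were whole Large White embryos of 17.5 to 18.0 days post coitum. Each embryo was genotyped from its extra-embryonic tissue. The labels give neither dam nor litter, and the p-values below reflect variation among 6 embryos alone.

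DNA methyltransferases place a methyl group on cytosine, and TET dioxygenases oxidise that methyl group, the first step of its removal. Histone methyltransferases of the KMT2 family mark promoters and enhancers at lysine 4 of histone H3, enzymes of the NSD and SETD2 type mark gene bodies at lysine 36, and SUV39H and SETDB enzymes mark silenced chromatin at lysine 9. Demethylases of the KDM families remove these marks, acetyltransferases open chromatin by neutralising lysines on histone tails, and deacetylases reverse this. In early embryos these enzymes are broadly expressed and are needed for the switch from pluripotent to tissue-restricted gene programmes, and embryos of mice that lack several of them die or show axial skeletal changes.

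Library totals of uniquely mapped reads ranged from 12.2 to 13.5, in units of 1000000 reads. RPKM, the read count scaled to transcript length and library total, is a level that can be compared between rows whose reads cover most of the transcript. For rows covered over a small part it is not a comparable level. WT replicate 3 stood apart: on the first principal component of all tested rows, with 57.7% of the variance, its score was -61.7 while the other 5 libraries scored between -9.13 and 29.99. VRTN had 3 reads over the 6 libraries, too few for its level to check the genotype labels. Summed over marker genes, erythroid RPKM ran from 2139 to 7648 in WT and from 283 to 3184 in QQ, and yolk sac endoderm RPKM from 56.4 to 326 in WT and from 46.1 to 637 in QQ. Neural tube markers ran from 64.3 to 77.3 in WT and 61.0 to 82.0 in QQ, somite and muscle markers from 110 to 125 and 84.1 to 114, and trophoblast markers from 38.5 to 49.8 and 46.5 to 51.3. Of 34 marker genes 30 had a matched row, each with at least 3 reads in all, while MYOD1, a muscle determination factor, was listed between 0 and 0.0395 RPKM. The part of these markers in the results below was not tested. In whole embryos, fewer cells of a type and less RNA per cell cannot be told apart.

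No member passed edgeR's quasi-likelihood test at an adjusted p under 0.05, as was the case for all 13957 rows tested (0% in either direction), and the adjusted p of the 79 tested members ran from 0.233 to 0.998. Fold changes below are therefore sizes with their errors and not called changes. Of the 79 members with enough reads, which belong to 61 genes, 51 had higher values in QQ and 28 lower, where 49.7% of all tested rows were higher. Their median log2 fold change was 0.16, against -0.003 over all tested rows. An unadjusted p under 0.05 was reached by 20 members with higher values in QQ, or 25.3% of them, against 11.0% of all tested rows. In the other direction it was reached by 4 members, or 5.06%, against 9.29% of all rows. DESeq2, the other count model used, called 4 members higher at an adjusted p under 0.05 and 0 lower, against 0.738% and 0.0573% of all rows, with 6 members left without an adjusted p. Those 4 were TET2, KMT2A and the shorter rows KMT2C (443 bp) and NSD1 (987 bp). KMT2C (443 and 719 bp) and KMT2D, all among the 20 members above, were tested only because of their QQ libraries, where they are high. With limma and array weights, which give less weight to libraries that deviate, 13 members were called higher and 2 lower, against 7.73% and 1.74% of all rows. Without WT replicate 3, edgeR called 0 members, 46 of 79 had higher values and the median log2 fold change was 0.07. In that comparison 19 members had an unadjusted p under 0.05 with higher values and 2 with lower, against 8.55% and 5.15% of all rows. Leaving out other libraries moved these counts too: the 20 members became 11 when QQ replicate 2 was left out and 9 when QQ replicate 3 was, and the 4 members became 2 when either WT replicate 1 or QQ replicate 2 was left out and 1 when QQ replicate 3 was. The shares of all tested rows in these fits are not given here, so these counts cannot be set against 11.0% and 9.29%. With 1 row per gene, 38 of 61 genes had higher values in QQ and the median was 0.12. Of these genes, 13 (21.3%) had an edgeR unadjusted p under 0.05 with higher values and 3 (4.92%) with lower. DESeq2 called 2 of them higher and 0 lower at an adjusted p under 0.05. Without WT replicate 3, 34 of the 61 had higher values and their median was 0.05.

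The 3 DNA methyltransferases with tested rows had near equal levels in both genotypes. DNMT1, which copies methylation after replication, was at 117, 114 and 101 RPKM in the WT libraries, given here and below in the order of replicates 1 to 3, and at 108, 116 and 116 in QQ. The groups overlapped, with the lowest and the highest value both in WT, and the log2 fold change was -0.06 ± 0.10 (SE, edgeR, n = 3 and 3). DNMT3A, which sets new methylation, had 41.3, 44.5 and 39.4 RPKM in WT and 41.3, 43.6 and 43.4 in QQ in its 2504 bp row, where the log2 fold change was -0.06 ± 0.10. Its shorter row of 946 bp, at 1.73 to 3.98 RPKM, had a log2 fold change of 0.17 ± 0.30. DNMT3B, the other de novo enzyme, had 25.8, 25.2 and 24.9 RPKM in WT and 22.2, 25.0 and 26.7 in QQ. The lowest and the highest of these 6 values were QQ libraries, and the log2 fold change was -0.14 ± 0.10. On the RPKM scale DNMT1 was thus 2.65 times the level of DNMT3A (2504 bp row) and 4.49 times that of DNMT3B, as means over the 6 libraries. DNMT3L, their catalytically inactive partner, had 7 reads over all libraries and was not tested. Fold changes include edgeR's correction for library composition and RPKM values do not. On uncorrected log2(RPKM + 0.5) values limma gave 0.037 for both DNMT1 and the longer DNMT3A row, so the sign of these differences turned. All 4 tested rows of this class had an edgeR unadjusted p of 0.203 or more.

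TET rows had higher mean values in QQ in all 5 cases, 3 of them rows assigned to TET1, with a median log2 fold change of 0.97. TET2, which oxidises methylcytosine and is best known from blood stem cells, was at 5.07, 4.99 and 1.59 RPKM in WT and 7.94, 9.44 and 9.49 in QQ. Every QQ library lay above every WT library, and WT replicate 3 lay far below the other 2. The log2 fold change was 1.12 ± 0.33 (edgeR unadjusted p = 0.00784, adjusted p = 0.233), and DESeq2 gave an adjusted p of 0.0421. Without WT replicate 3 it was 0.76, with an edgeR adjusted p of 0.169. TET3, the oxidase of the zygote and of neural tissue, likewise had its lowest value in WT replicate 3 and its highest in QQ replicate 3, with 6.06, 6.30 and 2.02 RPKM in WT and 8.65, 9.54 and 11.8 in QQ. Its log2 fold change was 0.97 ± 0.33 (edgeR unadjusted p = 0.0160), and 0.62 without WT replicate 3. TET1, the oxidase of pluripotent cells, had 3 rows with unlike fold changes. Its 4287 bp row held 21.6, 15.6 and 14.2 RPKM in WT and 18.9, 20.03 and 20.6 in QQ, so that the highest value was a WT library and the log2 fold change was 0.12 ± 0.15. The 845 bp row was at 15.4, 14.0 and 5.19 RPKM in WT and 16.0, 22.8 and 23.0 in QQ, and the 996 bp row at 10.3, 11.2 and 2.91 in WT and 13.6, 19.3 and 20.3 in QQ. In both short rows the groups did not overlap, with log2 fold changes of 0.74 ± 0.33 and 1.04 ± 0.39. Gene tables of Sscrofa11.1 list these short rows under SLC25A16, so their assignment to TET1 is unsure. Reads in WT replicate 3 covered 59.5% of the TET2 row and 69.4% of the TET3 row, against at least 90.4% and 94.5% in the other 5 libraries. The 4287 bp row of TET1 was covered to at least 98.4% in every library.

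**Figure D1:**
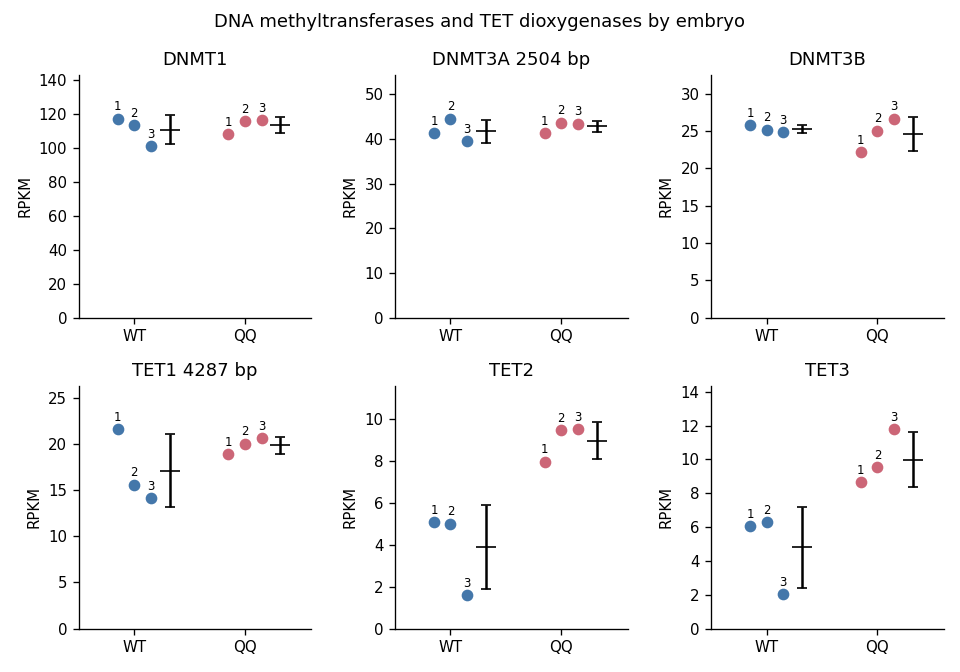
RPKM of 3 DNA methyltransferase rows and 3 TET rows in each of the 6 embryos; each point is 1 library numbered by replicate, with WT in blue and QQ in red, and the bar at the right of each group is the mean ± SD of its 3 libraries. The DNMT groups overlap, while TET2 and TET3 lie at 7.94 RPKM or more and 8.65 RPKM or more in QQ and at 5.07 or less and 6.30 or less in WT, with WT replicate 3 lowest.

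Lysine 4 methyltransferases of histone H3 had higher values in QQ in 10 of 11 rows, with a median log2 fold change of 0.70. In 8 rows every QQ library lay above every WT library, a state found in 18.8% of all tested rows. In 7 the unadjusted p was under 0.05 with higher values, against 11.0% of all rows. Both counts and the median include the 443 bp and 719 bp rows of KMT2C and the KMT2D row. Those rows were tested only because of their QQ libraries, as set out below, and cannot serve as support. KMT2A, the mixed-lineage leukaemia enzyme that maintains HOX gene expression, was at 8.76, 7.72 and 4.04 RPKM in WT and 10.8, 13.7 and 14.4 in QQ. The groups were apart, and the log2 fold change was 0.83 ± 0.23 (edgeR unadjusted p = 0.00529, adjusted p = 0.233, DESeq2 adjusted p = 0.0455). It was 0.58 without WT replicate 3. KMT2B, the paralogue of KMT2A, had 14.6, 13.02 and 12.4 RPKM in WT and 14.6, 15.8 and 16.9 in QQ, overlapping at the upper WT value, with a log2 fold change of 0.14 ± 0.10. KMT2C, which marks enhancers, had 4 rows, each part of its long transcript, and all 4 had higher values in QQ. Its 4716 bp row was at 5.82, 5.14 and 1.51 RPKM in WT and 7.78, 9.84 and 10.04 in QQ, with a log2 fold change of 1.07 ± 0.37. Its 443 bp row was hit by 15, 16 and 5 reads in the WT libraries and by 40, 48 and 46 in the QQ libraries, and with 1.81 ± 0.37 it had the largest log2 fold change of the members tested (edgeR unadjusted p = 0.000742, DESeq2 adjusted p = 0.0334). The 719 bp and 4557 bp rows had log2 fold changes of 1.34 ± 0.46 and 0.49 ± 0.26, and in the longer of them the groups overlapped. The 443 bp and 719 bp rows had 5 and 6 reads in WT replicate 3. Their WT libraries alone did not meet the low-count filter (about 10 reads in at least 3 libraries). Both rows were thus tested only because of their QQ libraries, where they are high. KMT2D, the other enhancer enzyme of the family, was hit by 7, 16 and 4 reads in the WT libraries and by 25, 20 and 24 in the QQ libraries. These reads fell on 0.78% to 1.25% of its 18199 bp, so they describe only a small piece of the transcript. Its log2 fold change of 1.27 ± 0.44 rests on that piece, and KMT2D too met the filter only through its QQ libraries.

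SETD1A and SETD1B, which carry most lysine 4 trimethylation in mammals, had fold changes of opposite sign. SETD1B had 7.77, 7.22 and 5.39 RPKM in WT and 8.89, 11.0 and 9.60 in QQ, with no overlap and a log2 fold change of 0.44 ± 0.14. SETD1A had 14.5, 13.03 and 15.3 RPKM in WT and 12.7, 14.1 and 14.5 in QQ, with its highest value in WT replicate 3 and a log2 fold change of -0.15 ± 0.11. SETD7, a lysine 4 monomethyltransferase, was higher in QQ by 0.70 ± 0.26, and KMT2E, a family member without clear catalytic activity, by 0.32 ± 0.15, both on the log2 scale and with groups apart in RPKM. For KMT2E the gap was very narrow, from 24.32 RPKM in WT replicate 1 to 24.35 in QQ replicate 1. The 8 KMT2 rows taken alone were all higher in QQ, with a median log2 fold change of 0.95. They are not 8 genes, since 4 are pieces of KMT2C and the KMT2D row is covered to at most 1.25%. The largest values were those of KMT2D and of the 443 bp and 719 bp rows of KMT2C. Those rows were tested only because of their QQ libraries, so the median of 0.95 is no support for a difference. The 4716 bp and 4557 bp rows of KMT2C had 1.07 and 0.49. The single rows of KMT2A, KMT2B and KMT2E had 0.83, 0.14 and 0.32.

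Lysine 9 methyltransferases gave 3 higher and 2 lower rows of 5, with a median log2 fold change of 0.08. SETDB1, which silences transposable elements, was at 14.2, 13.9 and 12.3 RPKM in WT and 13.4, 13.7 and 14.2 in QQ, and its log2 fold change was -0.06 ± 0.10. SETDB2, its relative, had 3.81, 5.13 and 2.28 RPKM in WT and 4.75, 7.34 and 6.83 in QQ. These groups overlapped through QQ replicate 1, and the log2 fold change was 0.66 ± 0.27 (edgeR unadjusted p = 0.0386). SUV39H2, an enzyme of constitutive heterochromatin, differed by 0.08 ± 0.13 in its 3003 bp row on the log2 scale, and by 0.78 ± 0.35 in a row of 1853 bp with 96 reads. That shorter row had 8 reads in WT replicate 3 and met the low-count filter only through its QQ libraries. SUV39H1 had a log2 fold change of -0.25 ± 0.19. EHMT2 was covered by 54 reads in all and was not tested.

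Lysine 36 methyltransferases had higher values in QQ in 5 of 6 rows, with a median log2 fold change of 0.24. The median was 0.10 without WT replicate 3. With each library's trend with length removed it was 0.06, 4 of 6 rows were higher and SETD2 had -0.07. NSD1, the Sotos syndrome gene, had 28.1, 29.9 and 18.0 RPKM in WT and 30.8, 39.4 and 42.9 in QQ in its 7224 bp row. The groups did not overlap, and the log2 fold change was 0.48 ± 0.18 (edgeR unadjusted p = 0.0230). Its 987 bp row was at 4.30, 5.602 and 2.41 RPKM in WT and 6.99, 10.5 and 11.2 in QQ, again without overlap, with a log2 fold change of 1.12 ± 0.29 and a DESeq2 adjusted p of 0.04997. NSD2, the highest of the class, had 51.4, 49.3 and 43.999 RPKM in WT and 52.0, 56.8 and 55.8 in QQ, a log2 fold change of 0.09 ± 0.10. NSD3 and SETD2, which alone adds the last methyl group at this lysine, had log2 fold changes of 0.32 ± 0.17 and 0.16 ± 0.12, and SETMAR, a fusion of a SET domain with a transposase in primates and a SET protein elsewhere, -0.24 ± 0.17. ASH1L was not tested, with 19 and 2 reads in its 2 rows.

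Rows for lysine 79 of histone H3 and lysine 20 of histone H4 were few. DOT1L, the lysine 79 enzyme, had 40 to 80 reads per library in a 4227 bp row covered to at most 14.7%, and its log2 fold change was 0.35 ± 0.25. KMT5B, a lysine 20 methyltransferase, was at 4.14 to 5.40 RPKM, with the lowest value in WT replicate 2 and the highest in QQ replicate 2, and its log2 fold change was -0.03 ± 0.14. Among the remaining rows described as histone methyltransferases, SETD3, an enzyme now known to methylate actin, was at 34.9, 33.4 and 36.8 RPKM in WT and 33.4, 34.9 and 36.9 in QQ (log2 fold change -0.10 ± 0.11). PRDM6, a factor of smooth muscle, was at 4.17 to 6.09 RPKM with a log2 fold change of -0.25 ± 0.20. PRDM9, the enzyme of meiotic recombination sites, had 18 reads in all.

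Demethylases formed the largest class, with 22 tested rows, of which 15 had higher values in QQ. The median log2 fold change was 0.23, and 0.05 without WT replicate 3. KDM7A, which removes repressive methylation at lysines 9 and 27 and is expressed in neural tissue, was at 3.54, 3.52 and 1.33 RPKM in WT and 5.61, 6.09 and 6.19 in QQ. The groups were apart, with WT replicate 3 again lowest. The log2 fold change was 1.01 ± 0.30 (edgeR unadjusted p = 0.00811), and 0.68 without that library. KDM5B, a lysine 4 demethylase, had the highest levels of the class and 2 rows with fold changes of opposite sign. Its 3912 bp row was at 111, 90.3 and 69.8 RPKM in WT and 97.6, 105 and 104 in QQ, where the groups overlapped and the log2 fold change was 0.09 ± 0.15. Its 2510 bp row was at 95.6, 67.5 and 94.3 RPKM in WT and 69.8, 68.1 and 64.4 in QQ. WT replicate 2 lay within the QQ range there, and the log2 fold change was -0.44 ± 0.15 (edgeR unadjusted p = 0.0162). KDM5A, a paralogue of KDM5B, had higher values in QQ in all 3 of its rows, with log2 fold changes of 0.37 ± 0.21, 0.56 ± 0.25 and 0.95 ± 0.37. KDM5C, the X-linked paralogue, had log2 fold changes of 0.51 ± 0.22 and -0.23 ± 0.23 in rows covered to at most 5.40% and 2.42%. Other demethylases lay between -0.25 (KDM8) and 0.51 (KDM3A, covered to at most 3.35%). KDM6A, the X-linked lysine 27 demethylase, had 4 rows with 5 to 40 reads each and was not tested, nor were KDM4A and KDM4D.

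Acetyltransferases had higher values in QQ in 4 of 7 rows, with a median log2 fold change of 0.48. HAT1, which acetylates new histone H4, was the highest of them, with 69.6, 82.2 and 70.7 RPKM in WT and 71.8, 78.4 and 77.7 in QQ and a log2 fold change of -0.06 ± 0.10. KAT2A, the GCN5 enzyme of the SAGA complex, had 30.8, 34.4 and 37.2 RPKM in WT and 29.5, 34.2 and 33.0 in QQ, and its log2 fold change was -0.18 ± 0.12. In both genes the groups overlapped over most of their range. KAT6A, an acetyltransferase that sustains HOX expression along the body axis in mice, was at 11.99, 13.8 and 6.08 RPKM in WT and 15.04, 19.7 and 18.8 in QQ. No QQ value fell within the WT range, and the log2 fold change was 0.66 ± 0.24 (edgeR unadjusted p = 0.0219), or 0.39 without WT replicate 3. KAT6B, its paralogue, had a log2 fold change of 0.48 ± 0.20, KAT2B, a paralogue of KAT2A, 0.57 ± 0.29, and KAT7, an acetyltransferase of histone H3, -0.13 ± 0.11. EP300, the enhancer acetyltransferase p300, was at 0.880, 1.26 and 0.436 RPKM in WT and 1.14, 1.82 and 2.51 in QQ, with a log2 fold change of 0.99 ± 0.36. Its reads covered at most 10.5% of 8364 bp, and WT replicate 2 lay above QQ replicate 1. KAT8 had 20 and 2 reads in its 2 rows and was not tested.

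Deacetylases had higher values in QQ in 5 of 11 rows and lower values in 6, with a median log2 fold change of -0.01. None of the higher rows and 2 of the lower ones had an unadjusted p under 0.05, against 11.0% and 9.29% of all tested rows, counts too small to set apart from those shares. HDAC3, the catalytic subunit of the NCOR complexes, was the highest of the class, with 79.4, 73.5 and 88.7 RPKM in WT and 67.0, 66.9 and 61.0 in QQ. Every QQ library lay below every WT library, a state found in 9.07% of all tested rows, and WT replicate 3 was the highest of the 6. The log2 fold change was -0.41 ± 0.12 (edgeR unadjusted p = 0.00839, adjusted p = 0.233, DESeq2 adjusted p = 0.116), and -0.31 without WT replicate 3. HDAC6, the deacetylase of tubulin, had 12.2, 10.7 and 12.9 RPKM in WT and 10.19, 10.8 and 10.3 in QQ, where WT replicate 2 lay within the QQ range. Its log2 fold change was -0.29 ± 0.12. HDAC5, a class IIa deacetylase, had 44.7, 38.0 and 49.6 RPKM in WT and 41.7, 41.0 and 40.9 in QQ, a log2 fold change of -0.20 ± 0.13 with WT on both sides of QQ. HDAC4, of the same class, had a log2 fold change of 0.27 ± 0.14, HDAC7 0.03 ± 0.15 and the better covered row of HDAC8 -0.01 ± 0.15. HDAC1, a nuclear class I enzyme, was covered to at most 17.3% and had a log2 fold change of 0.04 ± 0.14. HDAC11 had 111 reads and a log2 fold change of -0.46 ± 0.27, and HDAC10 had at most 2 reads in each of 3 rows.

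Of the deacetylase complex subunits, SAP18, part of the SIN3 complex and of a splicing complex, was at 157, 159 and 200 RPKM in WT and 151, 149 and 138 in QQ. The groups did not overlap and WT replicate 3 was the highest, with a log2 fold change of -0.34 ± 0.14 (edgeR unadjusted p = 0.0367) that came to -0.18 without that library. SAP130, SUDS3 and SAP30L had log2 fold changes of -0.11 ± 0.11, 0.09 ± 0.16 and 0.15 ± 0.17.

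**Figure D2:**
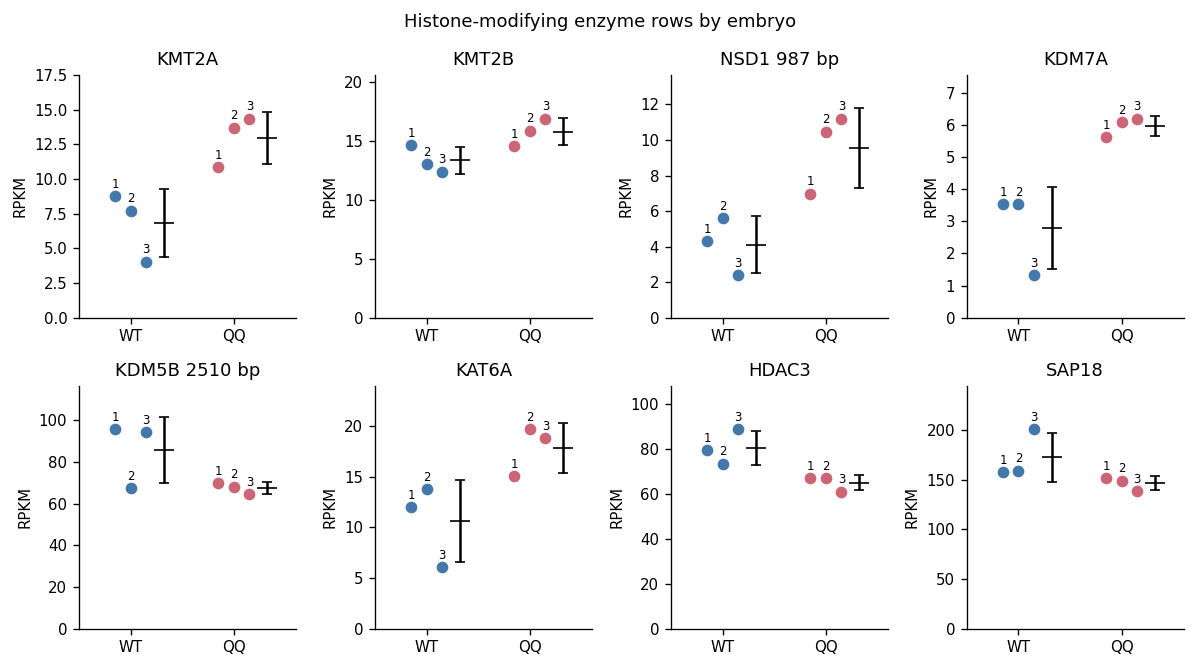
RPKM of 8 histone-modifying rows in each of the 6 embryos; points are single libraries numbered by replicate, WT in blue and QQ in red, and bars are the mean ± SD of 3 libraries. KMT2A, NSD1 (987 bp), KDM7A and KAT6A are higher in every QQ library than in any WT library and lowest in WT replicate 3, HDAC3 and SAP18 are lower in every QQ library, and KMT2B and KDM5B (2510 bp) overlap.

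**Figure D3:**
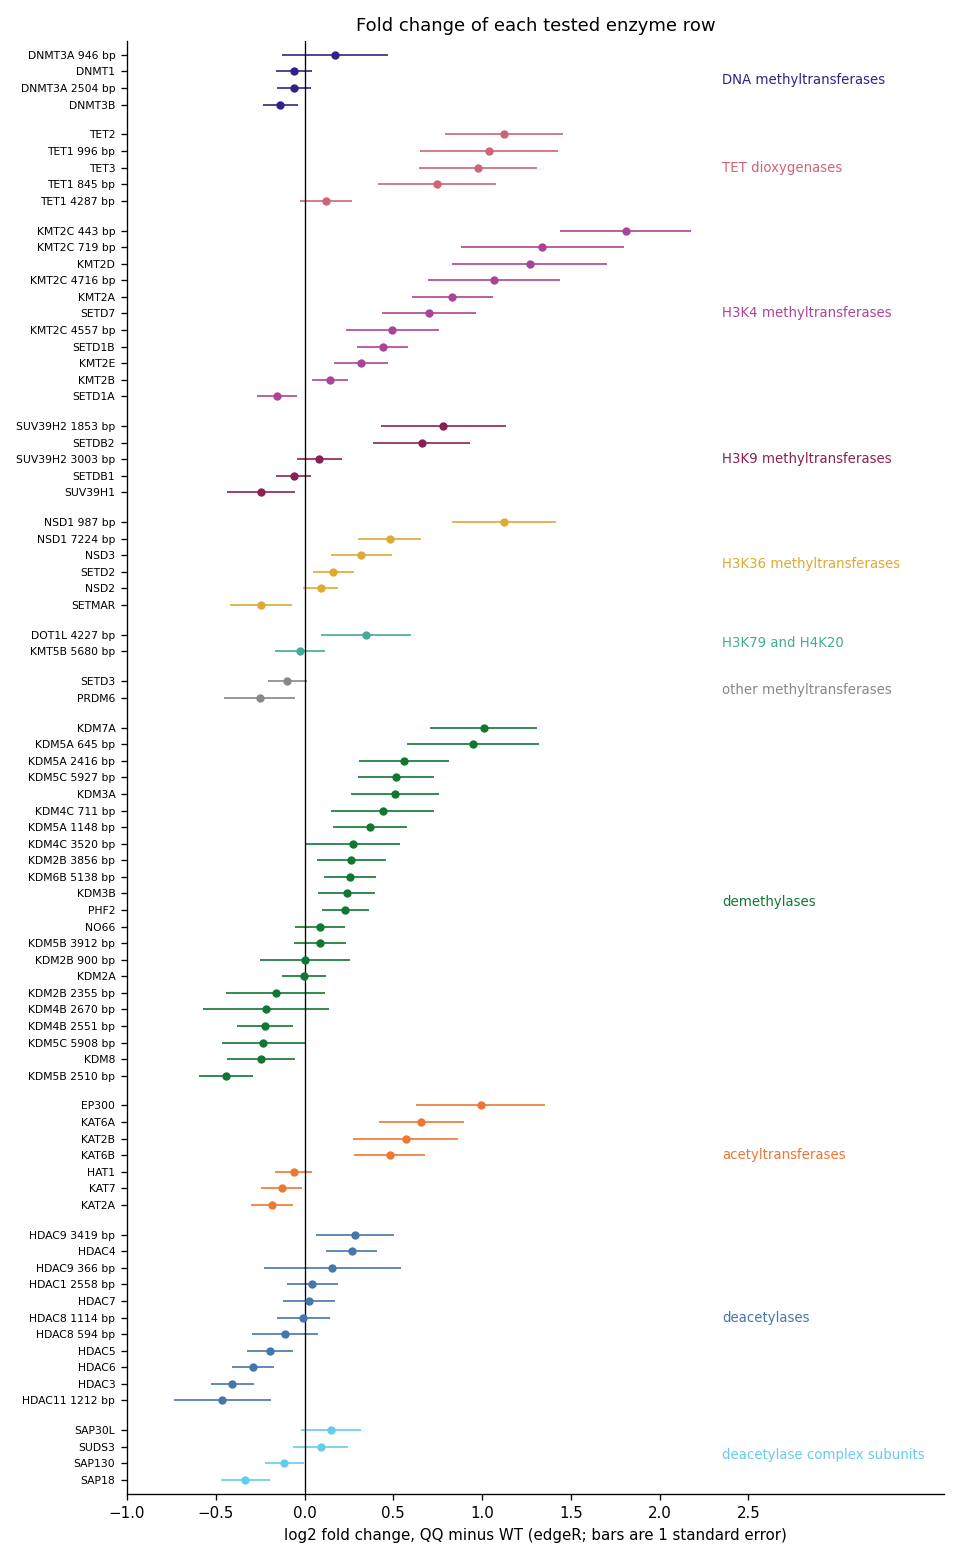
The log2 fold change, QQ minus WT, of each of the 79 tested rows, grouped by class and sorted within it; points are edgeR estimates from 3 libraries a group and bars are 1 standard error. TET and lysine 4 rows lie mostly between 0 and 1.81, DNA methyltransferase and deacetylase rows between -0.46 and 0.29.

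Rows that belong to 1 gene are pieces or alternative transcripts of it and not replicates. Of 13 genes with at least 2 tested rows, 7 had higher values in QQ in all rows, 2 had lower values in all rows, and DNMT3A, KDM2B, KDM5B and KDM5C had rows in both directions. The 29 untested rows had 1 to 55 reads over the 6 libraries, 25 of them belong to genes with further rows, and 9 genes were left with no tested row: ASH1L, DNMT3L, EHMT2, HDAC10, KAT8, KDM4A, KDM4D, KDM6A and PRDM9. Over the tested members, reads covered less than 20% of the row in every library for 10 rows (of KMT2D, KDM5C, KDM3A, KDM2B, KDM4B, EP300, SUV39H2, DOT1L and HDAC1) and more than 90% in every library for 28.

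Genes that work with these enzymes were taken from 7 lists of complex subunits, readers, arginine methyltransferases, sirtuins and cofactor enzymes, listed by function. The list genes named below, other than EZH1 and EZH2, are those with the smallest unadjusted p in each list. Of their 95 genes 84 were tested, 47 had higher values in QQ, and the median log2 fold change was 0.01. None passed edgeR's adjusted test, 5 had an unadjusted p under 0.05 with higher values and 10 with lower (5.95% and 11.9% of them, against 11.0% and 9.29% of all tested rows), and DESeq2 called 0 in either direction. EZH2, the lysine 27 methyltransferase of Polycomb complex PRC2, is described in the table as an enhancer of zeste protein and so is no member, and it had 76.6, 82.4 and 86.4 RPKM in WT and 72.5, 80.8 and 79.1 in QQ (log2 fold change -0.18 ± 0.11). Its paralogue EZH1 differed by 0.03 ± 0.17 on the log2 scale. SUZ12, which EZH2 needs for activity, had 25.4, 30.3 and 13.6 RPKM in WT and 29.8, 39.5 and 37.7 in QQ, overlapping through WT replicate 2, with a log2 fold change of 0.54 ± 0.23. WDR5, the shared scaffold of the KMT2 and SETD1 complexes, had a fold change opposite in sign to most of their enzymes, at 34.9, 39.0 and 46.3 RPKM in WT and 33.1, 31.5 and 33.8 in QQ, with no overlap and a log2 fold change of -0.39 ± 0.14. PSIP1, which tethers KMT2A to chromatin, had 0.28 ± 0.12. TADA3, a subunit beside KAT2A, had a log2 fold change of -0.43 ± 0.13, and MSL2, which works with KAT8, 0.50 ± 0.21. In the NuRD deacetylase complex MTA2 had -0.29 ± 0.10 and GATAD2B 0.63 ± 0.25. UHRF1, which brings DNMT1 to newly copied DNA, was at 146.7 to 170.7 RPKM in WT and 152.9 to 156.4 in QQ with a log2 fold change of -0.15 ± 0.10, and UHRF2, its paralogue, had 0.40 ± 0.20. PRMT7, an arginine methyltransferase, and SIRT6, a deacetylase of histone H3, both had -0.61, with SE of 0.16 and 0.19, and no overlap between groups. AHCY, which clears the product of all methyltransferases, and IDH2, which makes the cosubstrate of TET and KDM enzymes in mitochondria, had log2 fold changes of -0.35 ± 0.12 and -0.36 ± 0.12, again with every QQ library below WT. Over the 84 tested list genes, every QQ library lay above every WT library in 10 and below in 10, or 11.9% each. The shares of all tested rows were 18.8% and 9.07%.

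Ratios of 2 rows within 1 library do not depend on how libraries are scaled. In all, 11 pairs were set against each other, chosen after their values were seen, so the exact two-sided permutation p is a description, and with 3 embryos against 3 it cannot go below 0.1. TET2 over TET1 (4287 bp row) was 0.235, 0.320 and 0.113 in WT and 0.420, 0.471 and 0.460 in QQ, and TET2 over DNMT1 was 0.0433, 0.0440 and 0.0158 in WT and 0.0735, 0.0816 and 0.0816 in QQ. KMT2A over KMT2B was 0.599, 0.593 and 0.327 in WT and 0.745, 0.866 and 0.852 in QQ, and HDAC1 over HDAC3 was 0.126, 0.152 and 0.0937 in WT and 0.166, 0.161 and 0.172 in QQ. The HDAC1 row was covered to at most 17.3%, so the size of its ratio to HDAC3 does not compare the levels of the genes. In 8 of the 11 pairs all QQ libraries lay above all WT libraries, which gives the smallest possible p of 0.1 (0.138 after adjustment over the 11). The 8 were these 4 and the ratios TET3 over TET1, SETD1B over SETD1A, KAT6A over KAT7 and KDM5A over KDM5B. The rows of TET2, TET3, KMT2A, SETD1B, KAT6A, KDM5A and HDAC3 used here already had groups apart on their own. The share of other row pairs in this state was not computed, so the count of 8 largely follows from the choice of pairs. The groups overlapped for DNMT3B over DNMT3A, TET3 over TET2 and EZH1 over EZH2, with exact p of 0.3, 0.2 and 0.4. TET3 over TET2 lay between 1.01 and 1.27 in the 6 libraries, while TET2 over TET1 lay between 0.113 and 0.471.

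WT replicate 3 had the lowest RPKM of the 6 libraries in 52 of the 79 tested members, against 41.4% of all tested rows. The member rows together took 0.532%, 0.495% and 0.436% of all WT reads by replicate and 0.517%, 0.565% and 0.570% of all QQ reads. The median share of a member row covered by reads was 79.1% in that library and between 89.8% and 92.7% elsewhere, against 80.2% and 82.1% to 83.6% over all tested rows. Without this library the median log2 fold change of the TET rows was 0.62 and that of the lysine 4 rows 0.43. In the deposited RPKM, 29 members had every QQ library above every WT library and 3 below, against 18.8% and 9.07% of all tested rows. Both member counts were the same without WT replicate 3, against 21.2% and 10.8% of all rows. After TMM scaling, edgeR's correction for library composition, they were 25 and 6, against 15.2% and 14.5% of all rows. KMT2C (443 and 719 bp), KMT2D and SUV39H2 (1853 bp) are among the 29 and were tested only because of their QQ libraries.

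**Figure D4:**
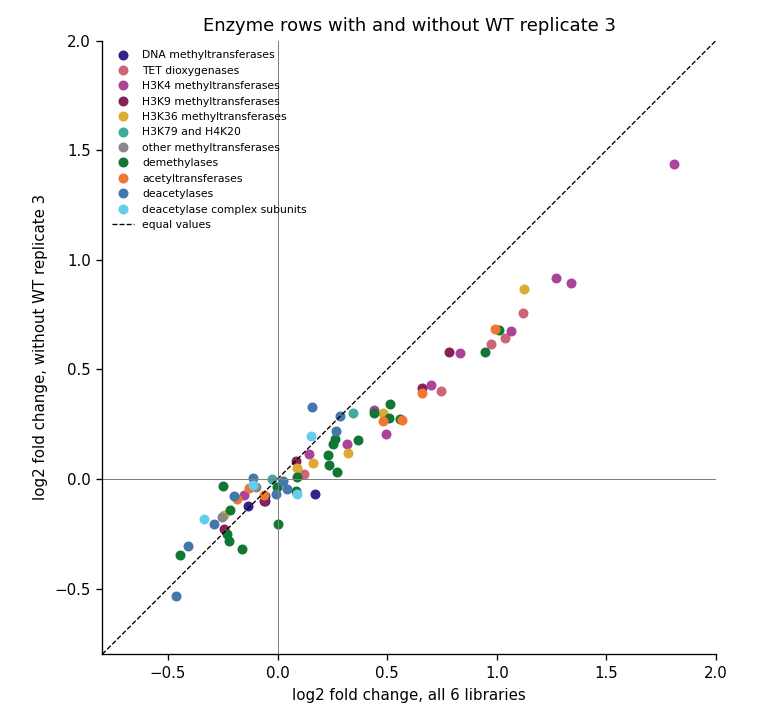
The log2 fold change of each tested enzyme row in all 6 libraries (x axis) and without WT replicate 3 (y axis); each point is 1 row, coloured by class, and the dashed line marks equal values. Rows at the upper right, such as TET2 with 1.12 and 0.76, stay above 0 but fall under the line, and the median of all enzyme rows goes from 0.16 to 0.07.

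Member transcripts were longer than most, with a median of 3027 bp in tested members and 1974 bp in all tested rows, and fold change went with length in these libraries. In rows of at least 5000 bp the median log2 fold change was 0.29 over 26 members and 0.15 over all 1306 rows, of which 69.5% were higher in QQ. From 1500 to 3000 bp it was -0.06 over 19 members and -0.05 over all rows, and below 1500 bp it was 0.16 over 19 members and -0.04 over all rows. With each library's trend with length removed, the median of the members was 0.10 and that of all rows -0.02. In that fit 18 members with higher values and 5 with lower had an unadjusted p under 0.05, against 10.3% of all rows in either direction. The TET rows kept a median log2 fold change of 0.85 there, TET2 had 0.98, KMT2A had 0.66, and KMT2B went from 0.14 to -0.11. Some rows moved further below 0: SETDB1 went from -0.06 to -0.32 and HDAC6 from -0.29 to -0.47 (edgeR unadjusted p = 0.0135 and 0.00979). DNMT1 went from -0.06 to -0.18 and DNMT3B from -0.14 to -0.19 (edgeR unadjusted p = 0.0776 and 0.0762), while DNMT3A (2504 bp) had -0.05.

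**Figure D5:**
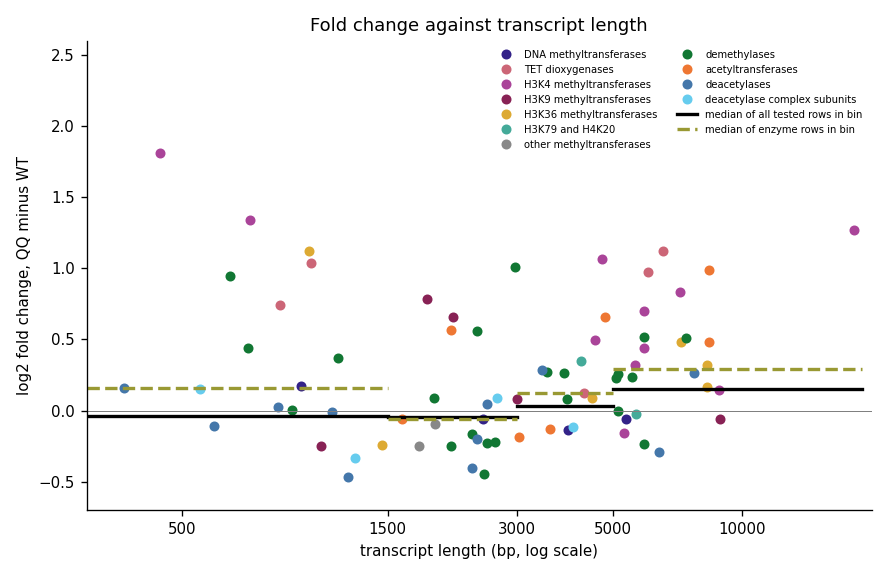
The log2 fold change, QQ minus WT, of each tested enzyme row against its transcript length (log axis), with points coloured by class; solid black bars are the medians of all tested rows in 4 length bins and dashed bars those of the enzyme rows. The medians of all rows are -0.04, -0.05, 0.04 and 0.15 from the shortest to the longest bin, and those of the enzyme rows 0.16, -0.06, 0.12 and 0.29.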

How the data were processed

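Total RNA of 6 whole embryos was made into TruSeq libraries, per the labels' protocols. The submitters' processing notes name the build Sscrofa10.2. Which aligner and counter were run, and whether strand was used, is not given in the sources used here. Per the file headers, the deposited table holds for each Ensembl transcript and library the count of uniquely mapped reads, the covered percent and the RPKM. The authors' counts are whole numbers with a dash for 0; the deposited RPKM is that count scaled to length and library total, and the deposited percent served only to describe coverage. Depth was 12.2 to 13.5 per library in units of 1000000 reads, so 1 read in 2000 bp is worth 0.0371 to 0.0410 RPKM, counting error only. Every pair of libraries differed by more than sampling noise (chi-square over degrees of freedom of at least 8.03).

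Counts were tested with edgeR 4.0.16 (R 4.3.3), with TMM factors of 0.933 to 1.06 and the default low-count filter. That filter asks for about 10 reads in at least 3 libraries and at least 15 in total. Quasi-likelihood fits set 3 WT against 3 QQ with no covariate, with Benjamini-Hochberg adjustment over all 13957 rows. Fold changes are QQ minus WT, with SE from the fit, while RPKM values are not TMM-scaled. Symbols came from the deposited protein description; of 46 member rows that could be checked through gene tables of Sscrofa11.1, 42 had the same symbol. Of the other 4, 2 short TET1-like rows were listed under SLC25A16 and the SETMAR and KDM4D rows under locus names without a symbol. Near-identical paralogues and gene fragments may share or lose uniquely mapped reads. Named genes were, per class, the 2 rows with the highest mean RPKM and the 2 with the smallest unadjusted p, all TET and DNA methyltransferase rows, KMT2A to KMT2D, EZH1 and EZH2, and per partner list the 2 smallest unadjusted p, of which 1 gene is not reported here; further members named for a role or a low read number were chosen after their values were seen. The members and lists were chosen with earlier results of these data known.

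Alternatives were no filter, median-ratio scaling, a filter at a mean of 2 RPKM, DESeq2 1.42.0, limma 3.58.1 on log2(RPKM + 0.5) with pseudocounts of 0.1 and 1, with quantile normalization and with array weights, removal of each library's length trend (loess, span 0.4), the replicate number as a block, an adjusted threshold of 0.1 and leaving out each library. Robust estimation, the count of non-overlapping groups after TMM scaling and counts without WT replicate 3 were added after seeing the data. The tests were tested on simulated data. Figures were drawn with matplotlib 3.10.9.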

Additional observations from a re-analysis of the deposited data

How the results depend on the processing

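Depth limits rows with few reads: members with fewer than 100 reads over the 6 libraries, such as KMT2D, have wide errors. The number of members past the adjusted threshold was 0 in edgeR and in limma without array weights. It was 4 higher with DESeq2, and 13 higher and 2 lower with array weights; over all rows DESeq2 called 103 higher and 8 lower, and array weights 1079 and 243. Leaving out 1 library gave 0 to 2 higher and 0 to 1 lower calls over all rows, and 9 to 22 members with higher and 1 to 5 with lower values at an unadjusted p under 0.05. The lower members at that p numbered 2 with limma at pseudocounts of 0.5, 0.1 and 1. Shares of all tested rows at that p are not given here for limma, nor for leaving out a library other than WT replicate 3. The median of the members stayed above 0 throughout, from 0.07 without WT replicate 3 to 0.26 with limma at a pseudocount of 0.1. The limma values on unscaled RPKM move the median of all rows to 0.08 at a pseudocount of 0.5, and signs of small differences turned there. The cause of the reversals was not tested.

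Replicate numbers did not pair the embryos: the correlations of same-numbered deviations were -0.19, 0.21 and -0.056. With the replicate block 0 members passed, 21 had higher and 2 lower values at an unadjusted p under 0.05, and the median was 0.17. The shares of all tested rows at that p in this fit are not given here, so the 21 and 2 have no background.

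Signs turned for differences near 0. With limma at pseudocounts of 0.5, 0.1 and 1 the log2 fold change was 0.037 at each for the DNA methyltransferase median, for DNMT1 and for HAT1 and 0.0011 at each for SETD3. In the same order it was 0.037, 0.037 and 0.036 for DNMT3A (2504 bp), 0.034, 0.035 and 0.032 for SETDB1, and 0.067, 0.072 and 0.061 for KMT5B. Quantile normalization gave 0.019 for the DNA methyltransferase median, -0.036 for the lysine 9 median and SUV39H2 (3003 bp), 0.065 for DNMT1, 0.060 for HAT1, 0.0063 for UHRF1 and -0.092 for EZH1. Array weights gave 0.049 and -0.063 for DNMT3A (2504 and 946 bp), -0.033 for TET1 (4287 bp), 0.022 for SETD3, -0.054 for KDM5B (3912 bp), 0.11 for HAT1, 0.055 for KAT2A, 0.039 for SAP130, 0.012 for EZH2 and -0.056 for EZH1. Leaving out 1 library gave -0.069 to 0.41 for DNMT3A (946 bp) and -0.054 to 0.25 for KDM5B (3912 bp), both below 0 only without WT replicate 3, -0.12 to 0.040 for KMT5B, -0.12 to 0.0026 for HAT1 and -0.053 to 0.17 for EZH1. KMT2B had -0.11 with the length trend removed, also with the replicate block. Of 56 named genes and rows, 40 kept their direction under all 19 alternatives.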
